A study of Mus musculus with 9 samples.

Results

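The genes described here are the receptors and repressors through which bile acids hold back their own synthesis in the hepatocyte: Nr1h4 (FXR), Nr0b2 (SHP), Nr5a2 (LRH-1), Hnf4a, Fgfr4 and Klb. They were chosen by symbol, and all 6 were found among the 54393 gene identifiers of the table, each with 1 identifier. All 6 passed the filter on low counts, as did 14873 genes in all. Transcripts were counted by RNA sequencing in livers of C56Bl/6j mice on the purified diet AIN-76a, 4 libraries from mice given antibiotics that stay in the gut, so as to deplete its bacteria, and 5 from control mice without antibiotics. The antibiotics libraries carry the numbers 1, 2, 3 and 5 and the control libraries the numbers 1 to 5. No label used here gives the antibiotics, the age of the mice or the hour at which livers were taken, or states whether libraries of a group come from separate mice. The p-values therefore cover the variation among these libraries, part of which may be technical.

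Bile acids are made from cholesterol in hepatocytes, and Cyp7a1 encodes the enzyme that sets the rate. The nuclear receptor FXR binds bile acids and, in the liver, induces SHP, a nuclear receptor without a DNA-binding domain that represses genes driven by LRH-1 and HNF4A, Cyp7a1 among them. In the ileum FXR induces the hormone FGF15, which reaches the liver and signals through the receptor FGFR4 and its co-receptor beta-Klotho, the product of Klb, to lower Cyp7a1.

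Of the 6 genes, 1 passed the test, Nr0b2, and it was lower in the antibiotics libraries. It averaged 16.96 ± 1.02 CPM (library sizes scaled by TMM factors) in antibiotics livers (SD, n = 4), against 28.4 ± 6.53 CPM in control livers (SD, n = 5). The threshold was an adjusted p below 0.05 by the quasi-likelihood method of edgeR, with p-values adjusted over all 14873 genes by Benjamini and Hochberg's procedure. By that rule 2.68% of all tested genes passed, 1.63% as higher and 1.05% as lower with antibiotics, beside 1 of 6 here, which was lower. The transcripts of the receptors on either side of SHP, from FXR to FGFR4 and beta-Klotho, had fold changes between 0.954 and 1.19 and did not pass. Their target Cyp7a1 was 3.94-fold higher in antibiotics livers.

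Nr0b2 (ENSMUSG00000037583.2) lies on chromosome 4, 133553376 to 133556536 on the plus strand of GRCm38. Its start region is shown because it is the gene whose level differed: the 250 bases before and 50 after the RefSeq start site, chr4:133553126-133553425 (GRCm38.p6), 5′ to 3′. Capitals mark matches to CAAGG, the core of the site that LRH-1 binds as a monomer, to the E-box CACGTG, and to the TATA box TATAAA.
Nr0b2: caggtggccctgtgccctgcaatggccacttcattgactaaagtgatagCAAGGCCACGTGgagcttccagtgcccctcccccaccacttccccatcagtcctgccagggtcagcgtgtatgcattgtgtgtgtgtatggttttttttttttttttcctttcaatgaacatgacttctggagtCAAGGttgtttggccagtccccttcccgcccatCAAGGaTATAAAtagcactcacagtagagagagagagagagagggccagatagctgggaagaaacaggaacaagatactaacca
The window holds CAAGG 3 times, at positions -201, -67 and -34 from the start, all on the strand of the gene. At -201 it is part of the longer match CAAGGNCA, which overlaps the E-box at -195. Searched on both strands, CAAGG occurs in 52.1% of 32851 such RefSeq windows, CAAGGNCA in 6.71%, CACGTG in 7.15% and TATAAA in 13.6%. The half-site AGGTCA, found in 16.3% of windows, and the inverted repeat of AGGTCA with a base between its arms (IR-1), a form bound by FXR with its partner RXR and found in 0.00913%, have no match in this one. AGGTCA matches were found at -214 for Nr1h4, on the opposite strand, and at -64 of the upstream of the annotated starts of Nr5a2. A match in letters is no evidence of binding. Nor does the lack of a match show that a site is absent. Only exact matches within the window were sought, and the exact IR-1 occurs in 3 of the 32851 windows. Nr5a2 and Hnf4a each have RefSeq windows at 2 start sites, and the counts per gene do not tell transcripts from these apart.

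Nr0b2 had 15.8, 16.8, 16.96 and 18.3 CPM in antibiotics libraries 1, 2, 3 and 5, against 37.9, 25.1, 22.7, 32.4 and 23.9 CPM in control libraries 1 to 5. All 4 antibiotics libraries lay below every control library, a separation of groups that 8.88% of all tested genes show in either direction. The antibiotics values were close together, with a coefficient of variation of 6.01%, against 23.0% in controls, where libraries 1 and 4 were highest. The log2 fold change was -0.74 ± 0.15 (SE, adjusted p = 0.0322), with a 95% interval from -1.06 to -0.42, and its size exceeded that of 96.0% of tested genes. The counts behind it ran from 242 to 1136 in antibiotics libraries and from 651 to 1537 in control libraries. With 1 library left out the log2 fold change kept its sign but the call ended in 5 of 9 fits: the adjusted p was 0.0915, 0.0673, 0.0827 and 0.0789 without antibiotics libraries 1, 2, 3 and 5 and 0.0625 without control library 4. In bulk liver, fewer cells of a type and less RNA per cell cannot be told apart.

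**Figure D1:**
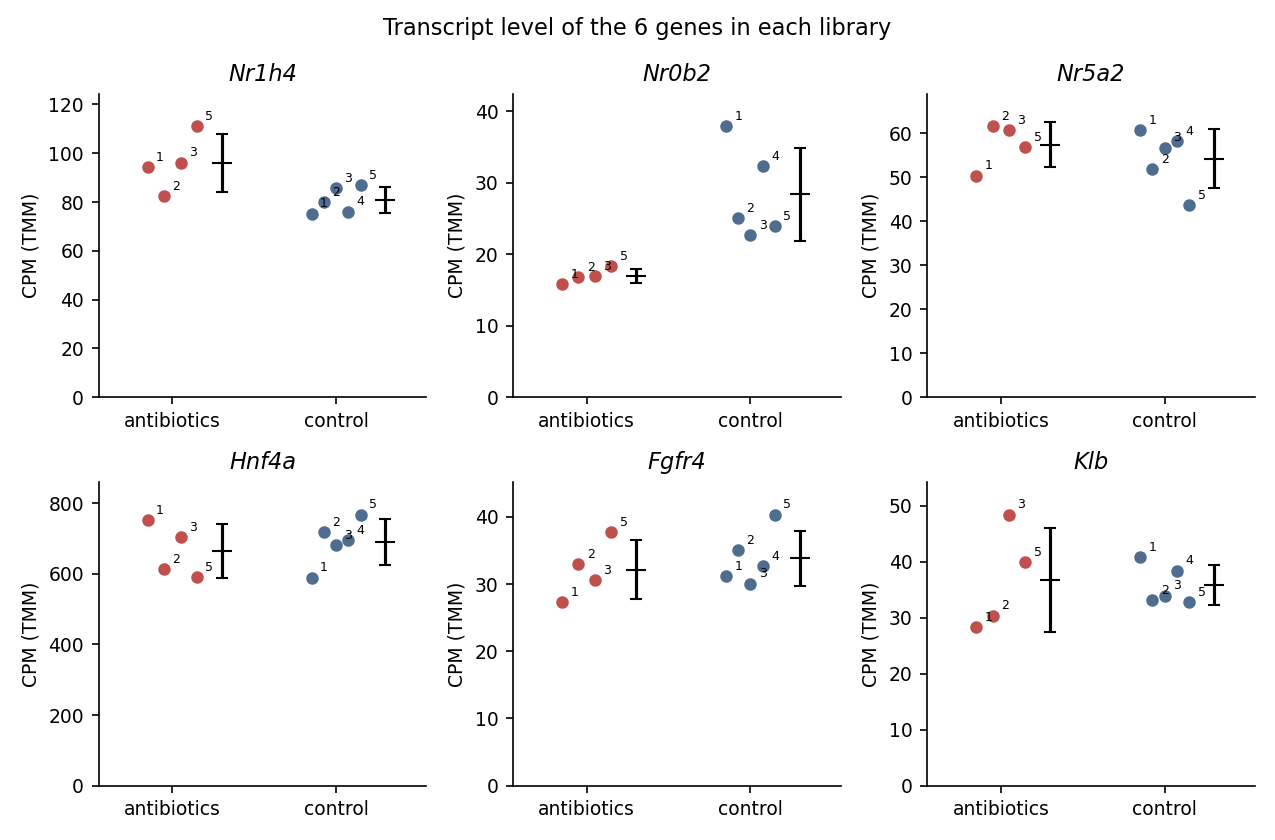
TMM-scaled CPM of the 6 genes in each library, with antibiotics on the left and control on the right of each panel. Points are libraries with their replicate numbers, and bars are the mean ± SD of 4 and 5 libraries. The Nr0b2 points of the groups do not overlap, at 15.8 to 18.3 and 22.7 to 37.9 CPM, while those of the other 5 genes do.

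Nr1h4 (chromosome 10, 89454234 to 89533585) encodes FXR, the bile acid sensor. Its level was 94.4, 82.3, 96.1 and 111 CPM in antibiotics libraries 1, 2, 3 and 5, against 75.2, 80.1, 85.8, 76.1 and 87.0 CPM in control libraries 1 to 5. The groups overlapped, since antibiotics library 2 was below control libraries 3 and 5. The log2 fold change was 0.25 ± 0.09 (SE, unadjusted p = 0.0159, adjusted p = 0.159 in edgeR's quasi-likelihood test), so Nr1h4 did not pass. At an unadjusted p under 0.05 stood 18.5% of all tested genes. The adjusted p stayed between 0.10 and 0.349 when any 1 library was left out.

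Because both transcripts come from the same library, the ratio of the Nr0b2 count to the Nr1h4 count needs no scaling between libraries. It was 0.167, 0.204, 0.176 and 0.165 in antibiotics libraries 1, 2, 3 and 5, against 0.504, 0.313, 0.265, 0.425 and 0.275 in control libraries 1 to 5. The highest antibiotics ratio was thus below the lowest control ratio. On geometric means the ratio was 0.514 times as high in antibiotics livers. Set against Nr5a2, the Nr0b2 ratio was 0.272 to 0.322 in antibiotics livers and 0.401 to 0.626 in control livers, and against Hnf4a 0.0210 to 0.0309 and 0.0311 to 0.0644. These ratios were formed after the levels had been seen and are given as a description, without a test.

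Nr5a2 (chromosome 1, 136842571 to 136960448), the orphan receptor LRH-1, activates Cyp7a1, Cyp8b1 and Nr0b2 itself. It had 50.3, 61.6, 60.7 and 56.8 CPM in antibiotics libraries 1, 2, 3 and 5, against 60.6, 51.8, 56.7, 58.1 and 43.6 CPM in control libraries 1 to 5. The groups overlapped, at 50.3 to 61.6 CPM and 43.6 to 60.6 CPM, and the lowest value was that of control library 5. Nr5a2 had a log2 fold change of 0.08 (95% interval -0.14 to 0.30, edgeR adjusted p = 0.716).

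Hnf4a (chromosome 2, 163506808 to 163572910), a receptor that holds much of the hepatocyte programme in place, was the most abundant of the 6. It had 752, 613, 704 and 591 CPM in antibiotics libraries 1, 2, 3 and 5, against 589, 718, 682, 695 and 768 CPM in control libraries 1 to 5. High and low libraries occurred in both groups, with control library 1 the lowest and control library 5 the highest. For Hnf4a the log2 fold change was -0.05 (95% interval -0.28 to 0.17, edgeR adjusted p = 0.83).

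Fgfr4 (chromosome 13, 55152640 to 55168759) encodes the tyrosine kinase receptor for FGF15. It had 27.3, 32.9, 30.6 and 37.7 CPM in antibiotics libraries 1, 2, 3 and 5, against 31.2, 35.0, 30.1, 32.6 and 40.3 CPM in control libraries 1 to 5. Library 5 was the highest in each group. For Fgfr4 it was -0.07 on the log2 scale (95% interval -0.31 to 0.17, edgeR adjusted p = 0.790).

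Klb (chromosome 5, 65348314 to 65384007) encodes beta-Klotho, without which FGF15 binds FGFR4 weakly. It had 28.4, 30.4, 48.5 and 40.0 CPM in antibiotics libraries 1, 2, 3 and 5, against 40.8, 33.1, 33.9, 38.4 and 32.7 CPM in control libraries 1 to 5. The antibiotics libraries held both the lowest 2 values and the highest, with a coefficient of variation of 25.2%, against 10.1% in controls. The log2 fold change was 0.04 (95% interval -0.28 to 0.36, edgeR adjusted p = 0.913). Its sign turned without antibiotics library 3 (-0.12) or library 5 (-0.0032), and that of Fgfr4 without control library 5 (0.0019). The count of Klb over that of Fgfr4, co-receptor to receptor, ranged from 0.922 to 1.58 in antibiotics libraries and from 0.812 to 1.31 in control libraries. The intervals of Nr5a2, Hnf4a, Fgfr4 and Klb exclude changes of the size seen for Nr0b2, and they do not show that levels were equal. The median log2 fold change of all tested genes was -0.0073.

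**Figure D2:**
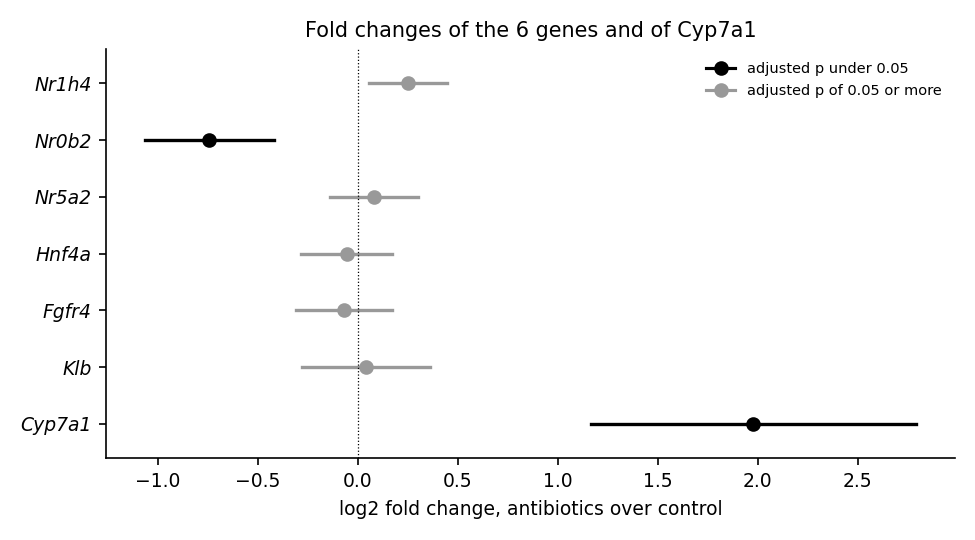
Log2 fold changes of the 6 genes and of Cyp7a1, antibiotics over control, with 95% intervals from edgeR over 4 and 5 libraries. Black marks an adjusted p under 0.05, which Nr0b2 reached at -0.74 and Cyp7a1 at 1.98, and grey marks the other 5 genes.

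Levels of different genes were compared per kilobase of exon, as RPKM. Hnf4a stood at 138 ± 15.7 RPKM in antibiotics livers (SD, n = 4) and 143 ± 13.6 RPKM in control livers (SD, n = 5), above Nr1h4 at 41.7 ± 5.13 and 35.1 ± 2.34 RPKM. Nr0b2 came next, at 14.98 ± 0.90 and 25.1 ± 5.77 RPKM. In all 4 antibiotics libraries Nr0b2 was below Nr1h4 with no overlap, while in controls their ranges overlapped and control library 1 had Nr0b2 at 33.5 and Nr1h4 at 32.7 RPKM. That overlap depends on the length used: per kilobase of the longest coding transcript, Nr1h4 was above Nr0b2 in 5 of 5 control libraries, at 37.4 to 43.2 RPKM against 20.1 to 33.5 RPKM. Nr5a2, at 9.72 ± 0.87 and 9.18 ± 1.14 RPKM, Fgfr4, at 9.08 ± 1.24 and 9.56 ± 1.15 RPKM, and Klb, at 8.09 ± 2.04 and 7.87 ± 0.79 RPKM, followed below, and neighbours among these 3 overlapped in both groups. With that same length Klb stood above Fgfr4 on the mean in antibiotics livers, at 10.4 and 9.67 RPKM, so that order is not settled.

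**Figure D3:**
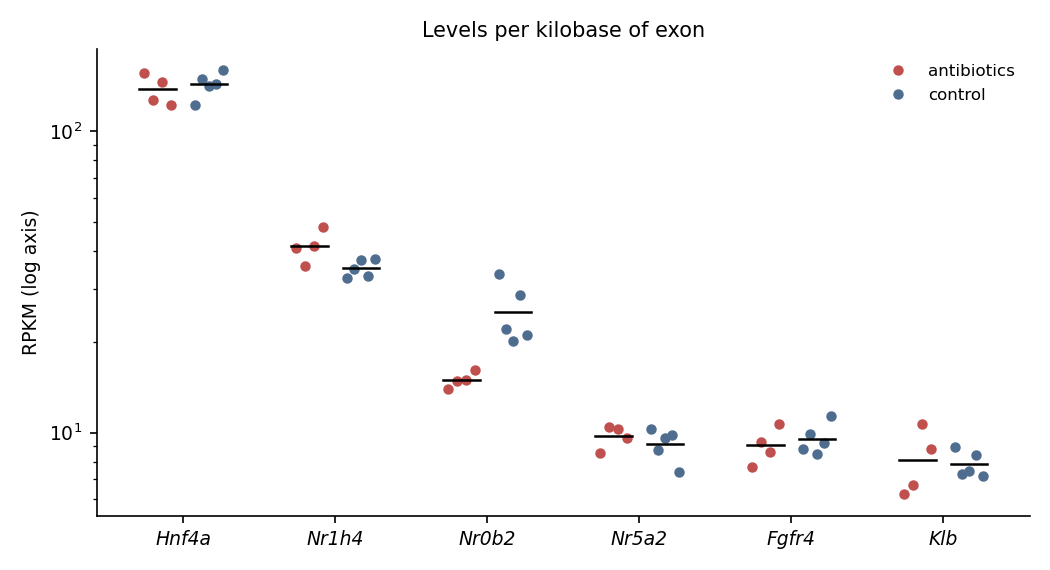
RPKM of the 6 genes on a log axis, each point a library, with antibiotics to the left of control and the group mean as a line. Hnf4a is highest at 122 to 159 RPKM over both groups, and Nr5a2, Fgfr4 and Klb overlap between 6.23 and 11.4 RPKM.

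Cyp7a1, the target of the loop, had 93.3, 29.6, 53.4 and 76.7 CPM in antibiotics libraries 1, 2, 3 and 5, against 14.0, 10.4, 25.8, 8.14 and 22.6 CPM in control libraries 1 to 5. All antibiotics libraries were above all controls, although antibiotics library 2 was only just above control library 3. The log2 fold change was 1.98 ± 0.37 (SE, edgeR adjusted p = 0.0239), and the adjusted p was 0.0766, 0.0603 and 0.0806 without antibiotics libraries 1, 3 and 5 and 0.0546 and 0.0518 without control libraries 1 and 2. The count of Cyp7a1 over that of Nr0b2 was 5.90, 1.76, 3.15 and 4.19 in antibiotics libraries 1, 2, 3 and 5, against 0.370, 0.414, 1.13, 0.252 and 0.945 in control libraries 1 to 5. Among controls, libraries 3 and 5 had the least Nr0b2 and the most Cyp7a1, but the opposite order did not hold throughout. Control library 2, at 25.1 CPM of Nr0b2, had less Cyp7a1 (10.4 CPM) than control library 1 (14.0 CPM), where Nr0b2 was 37.9 CPM. Among antibiotics libraries Cyp7a1 spanned 29.6 to 93.3 CPM over a narrow range of Nr0b2.

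**Figure D4:**
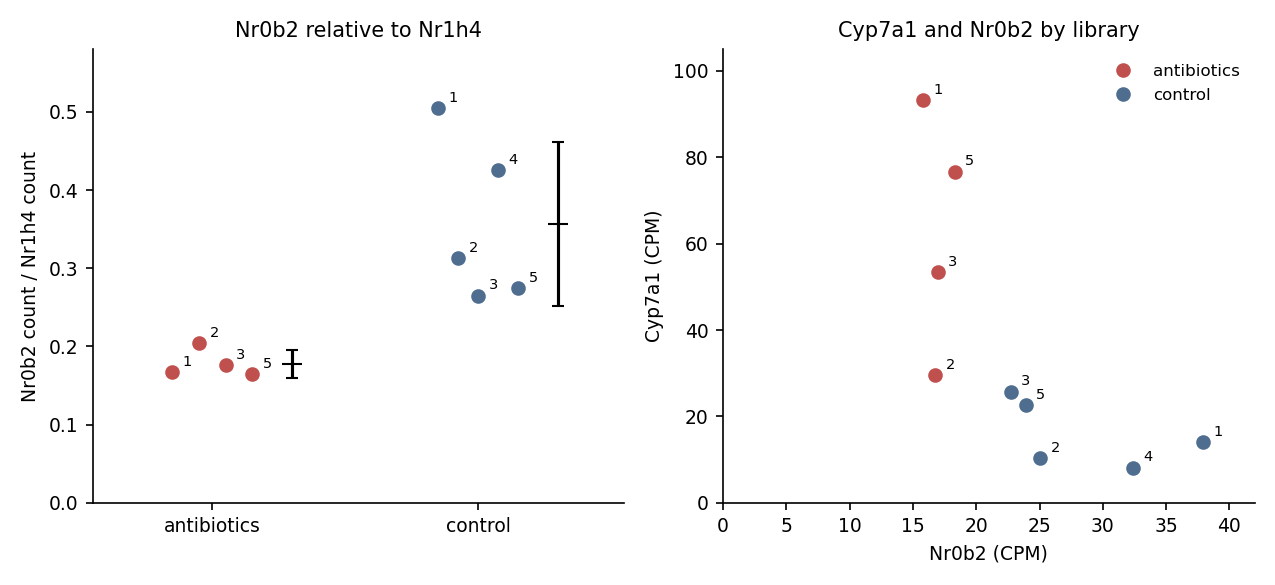
Left, the ratio of Nr0b2 to Nr1h4 counts in each antibiotics and control library, with mean ± SD of 4 and 5 libraries; the groups do not overlap, at 0.165 to 0.204 and 0.265 to 0.504. Right, Cyp7a1 against Nr0b2 in CPM, each point a library with its replicate number: the 4 antibiotics libraries lie at lower Nr0b2 and higher Cyp7a1 than all 5 control libraries, and antibiotics library 2 lies near control libraries 3 and 5.

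Whether these genes vary together from library to library was examined on log2 CPM after subtraction of each group's mean, over 9 libraries, with exact permutation within groups. Of the 15 pairs among the 6 genes, 0 passed at an adjusted p under 0.05 (2 had an unadjusted exact p under 0.05, and Spearman's rho also gave 0 after adjustment). Nr0b2 and Klb had r = 0.51 (exact p = 0.0170, adjusted p = 0.214 over 15 pairs) and rho = 0.58 (exact p = 0.025, adjusted p = 0.303), with r = 0.37 without the 2 libraries farthest from the median of Nr0b2. Nr0b2 and Hnf4a had r = -0.66 (exact p = 0.0285, adjusted p = 0.214) and rho = -0.52 (exact p = 0.137, adjusted p = 0.342), and r = -0.25 without the 2 farthest libraries, so the size of r depends on those 2. For every pair the 2 farthest libraries were chosen on log2 CPM before group means were subtracted. For Nr0b2 and Cyp7a1 the group difference therefore enters that choice. Nr5a2 and Hnf4a had r = -0.71 (exact p = 0.050, adjusted p = 0.25) and rho = -0.68 (exact p = 0.050, adjusted p = 0.303), and r = -0.38 without the 2 farthest libraries. Over all libraries without centring that pair had r = -0.73 (exact p = 0.0215, adjusted p = 0.176) and rho = -0.68 (exact p = 0.0503, adjusted p = 0.377), and r = -0.47 without the 2 farthest. FGFR4 and beta-Klotho, which act as a pair, had transcripts with r = 0.07 within groups (exact p = 0.882, adjusted p = 0.882) and rho = -0.017 (exact p = 0.985, adjusted p = 0.985), and r = -0.26 without the 2 farthest libraries. Of the 6 pairs of Cyp7a1 with these genes 0 passed within groups. Cyp7a1 and Nr1h4 came nearest at r = 0.74 (exact p = 0.0417, adjusted p = 0.25 over 6 pairs) and rho = 0.60 (exact p = 0.124, adjusted p = 0.451), and r = 0.86 without the 2 farthest libraries. Cyp7a1 and Nr0b2 had r = -0.42 (exact p = 0.296, adjusted p = 0.592) and rho = -0.48 (exact p = 0.225, adjusted p = 0.451), and r = -0.23 without the 2 farthest. For pairs with Nr0b2 or Cyp7a1, whose groups stand apart, no r over all libraries is printed in this paragraph.

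The genes whose pattern was most like that of each member were ranked by Pearson's r of log2 CPM over the 9 libraries, among 12458 genes that averaged 1 CPM or more, as a description in which the libraries and the group difference are shared. For Nr0b2 these were Isy1, a splicing factor (r = 0.97), Pdk4, the kinase that switches off pyruvate dehydrogenase (0.95), and Arhgap24 (0.95). For Nr1h4 they were 1600014C10Rik (0.98), Gpr107 (0.97) and the adenylate cyclase Adcy6 (0.97). Nr5a2 was followed most closely by Gm37105, Nfe2l2 and Cbfa2t2 (0.94 to 0.96), and Hnf4a by Arid5a, Kctd15 and D230025D16Rik (0.89 to 0.93). Fgfr4 was followed most closely by Man2b2 (0.98), and Klb by Gm2004, Gpsm2 and Pola2 (0.92 to 0.96). None of the genes named here for their likeness passed the edgeR test, with the lowest adjusted p at 0.0694 for Pdk4.

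Genes that FXR is known to induce in liver went both ways. Of 15 listed genes 14 were tested (median log2 fold change -0.0985, against -0.0073 over all tested genes). Nr0b2 was lower, Sdc1 higher, and the other 12 did not pass, beside 2.68% of all tested genes that passed. Sdc1, the heparan sulfate proteoglycan syndecan-1, had 148, 146, 178 and 147 CPM in antibiotics libraries 1, 2, 3 and 5, against 128, 123, 118, 118 and 127 CPM in control libraries 1 to 5. Its log2 fold change was 0.34 ± 0.08 (SE, edgeR adjusted p = 0.0425), and it passed in 1 of 9 fits that left out a library, that without control library 5 (otherwise adjusted p from 0.0613 to 0.113). For 6 of the 14 genes the antibiotics and control values were fully apart (42.9%, against 8.88% of all tested genes), 4 lower and 2 higher with antibiotics. Beside Nr0b2 and Sdc1 these were Pdk4, with a log2 fold change of -0.75 (adjusted p = 0.0694), the bile salt export pump Abcb11 at -0.31 (0.169), the phospholipid flippase Abcb4 at -0.27 (0.152) and the transcription factor Mafg at 0.34 (0.152). Abcb11 and Abcb4 were named after their values were seen, and their groups were only just apart. The highest antibiotics and lowest control values were 596 and 598 CPM for Abcb11 and 182 and 184 CPM for Abcb4. Abcb11 had 572, 583, 596 and 470 CPM in antibiotics libraries 1, 2, 3 and 5, against 811, 696, 609, 732 and 598 CPM in control libraries 1 to 5.

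**Figure D5:**
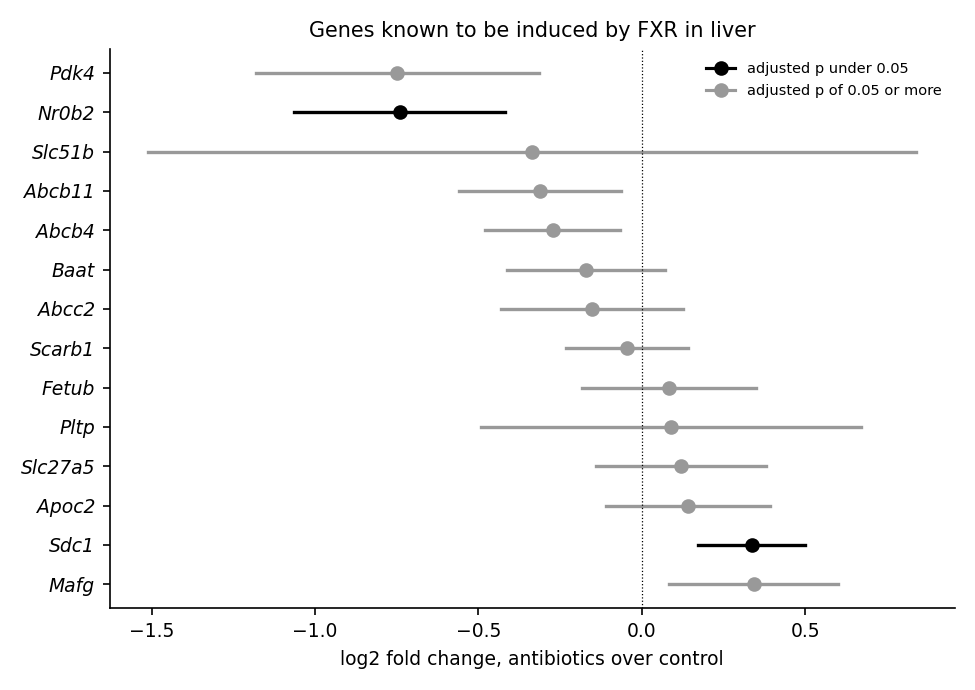
Log2 fold changes, antibiotics over control, with 95% intervals from edgeR for the 14 tested genes of the list of FXR-induced liver genes, lowest on top. Nr0b2 at -0.74 and Sdc1 at 0.34 passed at an adjusted p under 0.05, in black, on opposite sides of 0.

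Of all tested genes 1.63% were called higher. Among 12 targets of SHP and LRH-1, 1 was higher, Cyp7a1, and 11 did not pass (median 0.0492). Cyp8b1, the 12-alpha-hydroxylase that SHP also represses, averaged 318 ± 61.7 CPM in antibiotics livers (SD, n = 4) and 286 ± 18.1 CPM in control livers (SD, n = 5), with a log2 fold change of 0.16 (95% interval -0.0993 to 0.41, edgeR adjusted p = 0.513). Akr1d1, the reductase of the sterol ring, had a log2 fold change of 0.68 (edgeR adjusted p = 0.124, and 0.0340 with DESeq2), and Hsd3b7 and Cyp27a1 had -0.13 and 0.15. Of 11 tested HNF4A targets, a list that shares Cyp7a1 and Cyp8b1 with the one before, 2 were higher, Cyp7a1 among them, and 9 did not pass (median 0.0744).

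Of 29 tested receptor partners and cofactors, which include RXR, the corepressors and the histone-modifying enzymes that nuclear receptors recruit, 1 passed, as higher, and 28 did not (median 0.0185). Among all tested genes 1.63% passed as higher. Rxra, the partner of FXR on DNA, averaged 463 ± 27.0 CPM in antibiotics livers (SD, n = 4) and 421 ± 44.3 CPM in control livers (SD, n = 5), with an edgeR adjusted p of 0.467. Nr1i3, the xenobiotic receptor CAR, had a log2 fold change of 0.78 (edgeR adjusted p = 0.0747). It passed in 1 of 9 fits that left out a library, that without control library 3 (0.0127), and otherwise had an adjusted p of 0.111 to 0.208. The arginine methyltransferase Prmt1 had a log2 fold change of -0.27 (edgeR adjusted p = 0.163).

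On the side of FGF signalling, Fgf15 had 0 counts in all 9 libraries, which allows at most 0.195 CPM in the shallowest of them and 0.0507 CPM in the deepest, taking 3 counts as the limit and for counting error only. Of the 6 listed markers of ileal epithelium, Fgf15, Fabp6 and Cdx2 were at 0 in all libraries, and Vil1 had 1 to 5 counts in antibiotics libraries and 2 to 10 in control libraries. The other members were present: Fabp2, a fatty acid binding protein, at 61.0 to 85.8 CPM in antibiotics libraries and 49.6 to 66.6 CPM in control libraries, and the bile acid transporter Slc10a2 at 35.9 to 52.2 and 32.5 to 53.0 CPM. The summed level of the list was 104 to 134 CPM in antibiotics libraries and 82.2 to 113 CPM in control libraries, and neither of the tested members, Fabp2 and Slc10a2, passed (edgeR adjusted p = 0.214 and 0.810). The ileum, where FGF15 is made, is not among the tissues analysed here. Of 26 tested genes of the FGFR4 pathway 2 were higher and 24 did not pass (median -0.0821), beside 1.63% of all tested genes called higher. Fgf1, a ligand that binds every FGF receptor, had 122, 91.7, 102 and 104 CPM in antibiotics libraries 1, 2, 3 and 5, against 69.9, 62.7, 75.4, 74.7 and 70.2 CPM in control libraries 1 to 5. Its log2 fold change was 0.57 ± 0.09 (SE, edgeR adjusted p = 0.0140, and 0.0533 without antibiotics library 5). Fgfr3, another receptor of the family, averaged 38.3 ± 4.55 CPM in antibiotics livers (SD, n = 4) and 27.5 ± 1.96 CPM in control livers (SD, n = 5). Its log2 fold change was 0.47 ± 0.09 (SE, edgeR adjusted p = 0.0239, and 0.0721, 0.0543, 0.0686 and 0.0552 without antibiotics libraries 1, 2 and 5 and control library 4). The transcription factor Tfeb had a log2 fold change of 0.41 (edgeR adjusted p = 0.0917).

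Depth, cell markers and clock genes were set beside these values. Antibiotics libraries held 15422891 to 59179622 counts, with library 5 the deepest of all and the other 3 shallower than every control, and control libraries 28156248 to 49628737. Summed CPM of 8 hepatocyte markers was 90955 to 101587 in antibiotics libraries and 91220 to 107622 in control libraries, and 1 of the 8, the tyrosine catabolic enzyme Hpd, was higher (log2 fold change 0.52, edgeR adjusted p = 0.0453). Of 8 Kupffer cell markers 8 had negative log2 fold changes (median -0.44, against -0.0073 over all tested genes). With edgeR 0 of them passed (0 at an unadjusted p under 0.05). Their summed CPM was 164 to 211 in antibiotics libraries, within the 161 to 486 of control libraries. Csf1r spanned 26.2 to 33.1 CPM in antibiotics libraries and 25.0 to 85.6 CPM in control libraries. The shared direction may thus rest on few control libraries. The 13 mitochondrially encoded mRNAs were all above 0 in log2 fold change, with 0 passing and 4 at an unadjusted p under 0.05, and summed to 49480 to 73733 and 44895 to 65301 CPM. Of the other marker lists (ileal, bile duct, endothelial, stellate, adipose, pancreatic and blood cells) 0 members passed. Of 19 clock genes 5 were higher, Dbp, Hlf, Per3 and Tef among them, and 1 lower, Nfil3. Of all tested genes 2.68% passed in either direction. At an unadjusted p under 0.05 in edgeR's test stood 16 of the 19 clock genes, against 18.5% of all tested genes. The groups were fully apart for 7 clock genes (36.8%), against 8.88% of all tested genes. Per3 is named after its values were seen. Dbp, a clock output factor, had a log2 fold change of 0.82 and passed in all 9 fits that left out a library. Nfil3 had -0.67, and its call ended when antibiotics library 3 (adjusted p = 0.0501) or 5 (0.0570) was left out, and Tef, Per3 and Hlf passed in 3, 3 and 2 of the 9 fits. Nr0b2 and Cyp7a1 are themselves known to cycle with the clock, and the part of these differences in the Nr0b2 result was not tested.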

How the data were processed

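The values are the authors' deposited estimated counts for each gene. Salmon and GRCm38 are named for them, per the submitters' processing notes, and the reads came from stranded mRNA libraries, per the labels' protocols. Not given in the sources used here are the annotation, Salmon's version and the use of strand in counting. The values were whole numbers and were used as they stood. All 54393 identifiers occur in GENCODE M21, which gave positions and exon lengths. No exon of the 6 genes or Cyp7a1 overlapped an exon of another gene, and 0 of these 7 had a copy of at least 95% identity over 200 nt (BLAST+ 2.17.0).

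Genes were filtered with filterByExpr (minimum count 10, minimum total 15), scaled by TMM and tested with edgeR 4.0.16 in R 4.3.3 by the quasi-likelihood F test with group as the only term; the test was checked on simulated data. The SE is the log2 fold change over the square root of F. Log2 CPM used a prior count of 2. Alternatives were RLE and upper-quartile factors, library sizes without the 10 most abundant genes, DESeq2 1.42.0, limma-voom 3.58.1, other filters and thresholds, leaving out libraries in turn and a block on the replicate number.

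Members and gene lists were chosen with earlier results of these data known. The named genes are the members, Cyp7a1, Cyp8b1, Rxra, Fgf15, Alb, from each list the up to 4 genes lowest in p, and the 3 genes most like each member; others are said to be named after their values were seen. Some genes that this rule selects are not reported here. In the HNF4A list 11 of 12 symbols were matched. No 2 libraries of a group agreed within sampling noise (lowest chi-square per degree of freedom 18.5).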

Additional observations from a re-analysis of the deposited data

How the results depend on the processing

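The edgeR test called 398 genes, 242 higher and 156 lower; DESeq2 called 975, the fit with a replicate block 169, and thresholds of 0.01 and 0.10 gave 20 and 937. With 1 library left out the count ran from 36 to 455. Same-numbered libraries did not vary together (r over genes -0.0022, -0.056, 0.032 and 0.10 for numbers 1, 2, 3 and 5), so the numbers are not taken as pairs. With the replicate block Nr0b2 had a log2 fold change of -0.66 (adjusted p = 0.0755), so that its call ended (control library 4 shares its number with no antibiotics library and adds nothing to that estimate); under the other 7 alternatives on all libraries it was between -0.76 and -0.70 and passed in each, including DESeq2 (0.00027) and limma-voom (0.0418). With 1 library left out it ran from -0.81 to -0.61. Cyp7a1 passed under all 8 alternatives on all libraries (0.00076 to 0.0290). Nr1h4, Nr5a2 and Hnf4a kept their sign and did not pass in any fit, with ranges over the omission of 1 library of 0.17 to 0.32, 0.014 to 0.14 and -0.12 to -0.00081. Those of Fgfr4, -0.16 to 0.0019, and Klb, -0.12 to 0.14, crossed 0 (Klb -0.0032 without antibiotics library 5). Of the 106 tested genes in the 6 pathway and clock lists 12 passed, beside 2.68% of all 14873 tested genes. These 12 include the clock genes called, 5 higher and 1 lower, as well as Nr0b2 and Cyp7a1. The count was 22 with DESeq2, 6 with the replicate block and 2 to 15 with 1 library left out. Beside these stand the 975, 169 and 36 to 455 genes called over the whole table. Sdc1 did not pass with the replicate block (0.121) or with no filter on low counts (0.0764), nor Fgfr3 with the replicate block (0.0528). Akr1d1 passed with the replicate block (log2 fold change 0.78, adjusted p = 0.0473) and with DESeq2 (0.0340). Nr1i3 passed with DESeq2 (0.0089) but not with the replicate block (0.130). The cause of these changes was not tested. No pair of the 15 members' pairs or the 6 with Cyp7a1 passed within groups under another prior count, RLE factors, Spearman's rho or omission of a library. Over all libraries none of the 15 passed either. Of these 15 pairs 10 are without Nr0b2, and those with Nr0b2 carry its group difference.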

Other observations

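Control libraries 1 and 4 stood out together in several of these genes but not in others, a pattern noticed in the data and given as values. They had the highest Nr0b2 of the controls, at 37.9 and 32.4 CPM, against 22.7 to 25.1 CPM in control libraries 2, 3 and 5. They also had the highest Pdk4, at 8.10 and 7.85 CPM against 4.75 to 5.25 CPM, and the highest Abcb11, at 811 and 732 CPM against 598 to 696 CPM. Nr1h4 was lowest in the same libraries, at 75.2 and 76.1 CPM, against 80.1 to 87.0 CPM in control libraries 2, 3 and 5. Abcb4 and Sdc1, also listed as FXR-induced, did not follow. Among controls Abcb4 was lowest in library 1, at 184 CPM, and highest in library 5, at 254 CPM. Sdc1 was highest in control library 1, at 128 CPM, and lowest in control library 4, at 118 CPM.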
